A study of Mus musculus with 33 samples.

Results

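The expression of 10 genes of the Wnt pathway was followed in mouse embryonic stem cells (mESCs) and in embryoid bodies (EBs) made from them. The set comprised the ligands Wnt3a, Wnt5a, Wnt5b and Wnt8a, the agonist Rspo3, the inhibitors Axin2 and Dkk1, and the transcription factors Lef1, Sp5 and Cdx1. The genes were taken by name from the RNA-seq count tables, and all 10 were found among the 37991 gene identifiers listed for each of 33 libraries. All are protein-coding genes, counted over their exons in the NCBIM37 annotation. Among the ligands, Wnt3a lies at chr11:59061535-59104254, Wnt5a at chr14:29317936-29340633 and Wnt5b at chr6:119382549-119494336, and Rspo3 at chr10:29172915-29255673. Axin2 lies at chr11:108781663-108812097, Dkk1 at chr19:30620353-30624155, Lef1 at chr3:130813389-130927274 and Sp5 at chr2:70312980-70315786.

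All lines derived from E14TG2a, a male mouse embryonic stem cell line, and had been transfected with a Cas9 plasmid and selected with puromycin. Control clones #1, #4 and #7 had received the Cas9 plasmid without a guide. Neil1 clones #7, #9 and #11 and Neil2 clones #1, #11 and #14 carried a CRISPR deletion around the active site of a DNA glycosylase that starts the repair of oxidised bases. Apex1, the endonuclease that acts on the resulting abasic sites, was represented by technical duplicates of 1 mutant clone, so that nothing measured for it extends beyond that clone. Each genotype was sampled as mESCs kept with LIF, as EBs harvested on day 8, and as EBs + RA, in which retinoic acid (RA) at 5 µM was added to part of the same EB culture from day 4. This made 3 clones per group for control, Neil1 and Neil2 at each of 3 stages. Each mutant was compared with the same 3 control clones of its stage, so that the values of the 3 mutants given side by side are not independent of one another.

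Wnt ligands bind Frizzled receptors and their LRP co-receptors. Without them, a complex built on Axin proteins marks β-catenin for destruction. With them, β-catenin accumulates and activates genes through TCF/LEF factors, and among these genes Axin2 and Dkk1 dampen the signal, whereas Lef1 and Sp5 act on transcription. In the gastrulating mouse embryo this signal is needed for the primitive streak, mesoderm and posterior body axis, while Wnt5a and Wnt5b act mostly on cell movement and polarity without β-catenin. EBs form cells of the streak and its derivatives, and RA turns them towards neural fates.

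Counts assigned to genes ranged from 21523742 to 48350904 per library, with a median of 26720028. Levels are given as CPM, a gene's share of the counts of a library on a fixed scale, after TMM scaling of all 33 libraries together, and CPM per kilobase of exon was used for comparisons between genes. The summed CPM of 6 pluripotency markers was 3832 to 5619 in mESC libraries, 1617 to 2980 in all EBs but 74.3 to 619.1 with RA, and the summed mesoderm markers went from 12.6 to 15.2 CPM in control mESCs to 143.5 to 181.3 CPM in control EBs. Because each planned deletion spares most exons, the gene-level count is no measure of it. Neil1 had 2.51 to 31.6 CPM in Neil1 mESCs and 7.67 to 9.83 CPM in control mESCs, and Neil2 had 5.49 to 9.54 CPM in Neil2 mESCs and 5.77 to 15.1 CPM in control mESCs. Apex1 was higher, not lower, in the libraries labelled Apex1, with 72 to 75.4 CPM against 7.69 to 17.9 CPM in control mESCs, and these libraries are called by their label for that reason. This count does not bear on the deletion, for which the authors report genotyping PCR with a smaller product and a Western blot for APEX1.

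In control clones, 9 of the 10 genes rose from mESCs to EBs, where 18.5% of all tested genes rose, and none fell, where 20.2% did. Genes were called differentially expressed (DE) where the log2 fold change passed 0.5 in either direction and edgeR's quasi-likelihood test gave, after Benjamini-Hochberg adjustment across all tested genes, an FDR below 0.1. Log2 fold changes are given ± their standard error. Wnt5a had 1.46, 0.863 and 1.5 CPM in the 3 control mESC libraries and 113, 86.4 and 53.0 CPM in the EBs of the same clones. Every EB library lay far above every mESC library, and the log2 fold change was 6.01 ± 0.33 (FDR 4.1e-06). Rspo3, a secreted protein that protects Frizzled receptors from turnover, went from 5, 5 and 2 counts in control mESCs to 14.2, 15.7 and 14.7 CPM in EBs (6.55 ± 0.30, FDR 2.1e-06). Dkk1, a secreted LRP antagonist, and Sp5, a zinc finger repressor, rose by 5.90 ± 0.37 and 4.73 ± 0.32. The Dkk1 value was 6.61 without the mESC library of control clone #7. Smaller rises were those of Wnt5b (3.25), Axin2 (2.95), Wnt8a (2.63), Cdx1 (1.11) and Wnt3a (0.92, FDR 0.076). The Wnt3a call was lost without the mESC library of clone #4 (0.85, FDR 0.196) or #7 (0.72, FDR 0.119) and without the EB library of clone #1 (0.78, FDR 0.231) or #4 (0.94, FDR 0.154). Lef1, the exception, was already at 78.3, 90.2 and 52.6 CPM in mESCs and at 111, 87.3 and 61.0 CPM in EBs, with overlapping groups. Per kilobase of exon, Dkk1 (16.1), Axin2 (15.9), Wnt5a (10.8) and Sp5 (10.1) had the highest mean CPM of the set in control EBs, and Wnt3a the lowest (0.412). In whole EBs, fewer cells of a type and less RNA per cell cannot be told apart, here and in all comparisons that follow.

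With RA, 8 of the 10 genes fell in control clones, where 20.7% of tested genes fell, and Wnt3a rose, where 23.3% rose. Wnt8a dropped from 14.4, 12.8 and 15.9 CPM to 1.80, 1.43 and 1.61 CPM, without overlap (−3.12 ± 0.20, FDR 6.6e-06). Wnt5a fell by 2.65, Dkk1 by 2.62, Lef1 by 2.61, Rspo3 by 2.43, Sp5 by 2.29, Wnt5b by 1.22 and Axin2 by 1.17 on the log2 scale, with an FDR of at most 0.012. The Sp5 change was −3.00 without the EBs + RA library of control clone #1, in which Sp5 was highest. Wnt3a, a ligand of the posterior epiblast and later of the dorsal neural tube, rose by 1.18 ± 0.43 (FDR 0.047). That call was lost without the EB library of clone #4 (1.17, FDR 0.110) or #7 (1.06, FDR 0.132) or the EBs + RA library of clone #1 (0.73, FDR 0.202). Cdx1, a homeobox factor of the posterior axis that responds to both Wnt and RA in embryos, had 6.05, 4.52 and 7.03 CPM without and 5.83, 6.51 and 8.53 CPM with RA (0.27 ± 0.23, FDR 0.36).

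**Figure D1:**
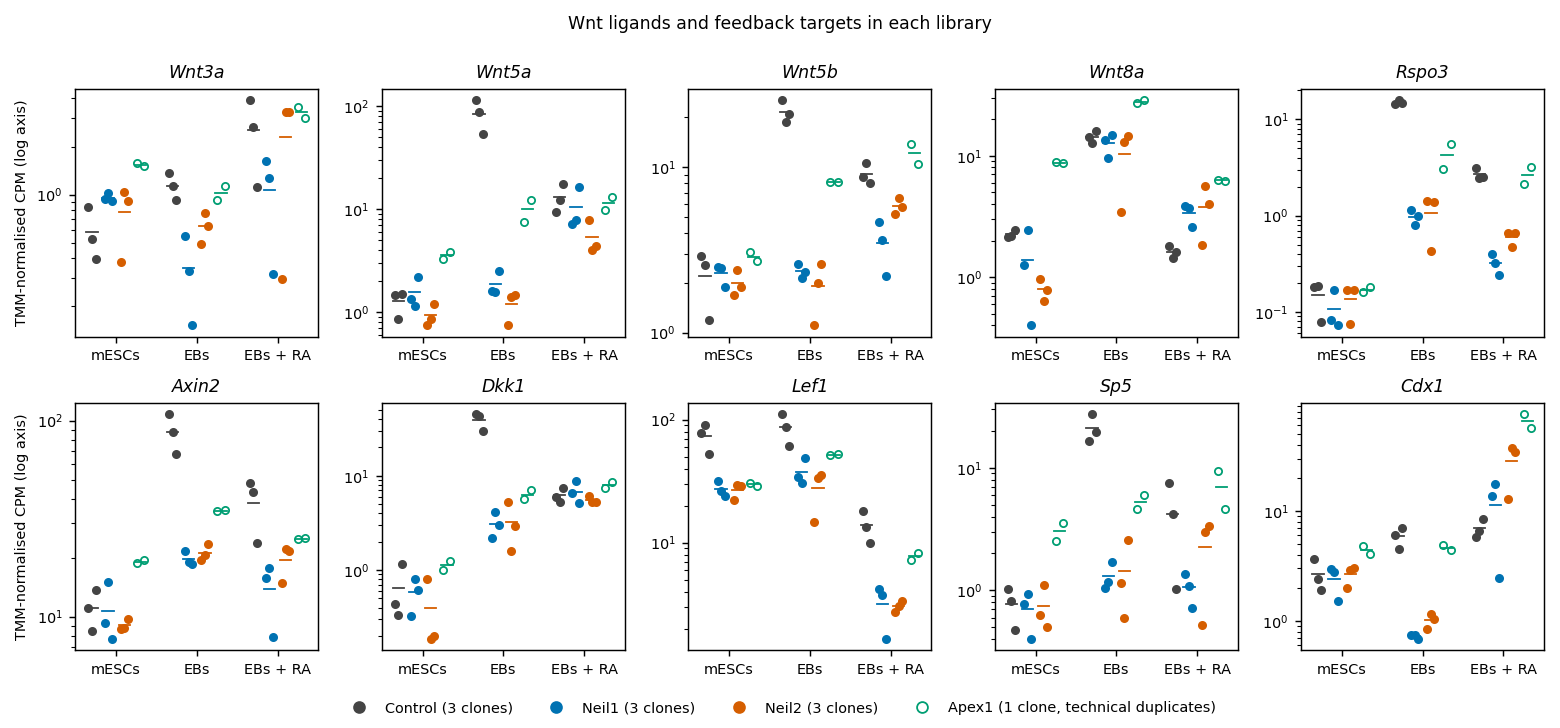
TMM-normalised CPM on a log axis for each of the 10 genes in all 33 libraries, by stage and genotype; filled points are clones, open points the technical duplicates of the Apex1-labelled clone, and lines the group means. For Wnt5a the 3 control EB libraries stand at 53.0 to 113 CPM, and all 6 Neil1 and Neil2 EB libraries below 3 CPM, while Wnt8a in EBs overlaps between these groups.

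In EBs, most of the 10 genes were lower in both Neil mutants than in control clones. The change from mESCs to EBs was not tested in the mutants. Of the 10 genes, 9 were lower in Neil1 EBs, where 13.1% of all tested genes were lowered, and 8 were lower in Neil2 EBs, where 7.69% were lowered. None was raised in either, where 10.4% and 8.65% of tested genes were. The median log2 fold change of the 10 genes was −3.11 in Neil1 and −3.03 in Neil2, and that of all tested genes 0.00 and 0.02. The set had been chosen with earlier results of these data known, so that these shares and medians are a description and not an independent test.

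Among the ligands, Wnt5a was lowered most. It had 1.60, 1.59 and 2.51 CPM in Neil1 EBs and 0.749, 1.41 and 1.46 CPM in Neil2 EBs, against 113, 86.4 and 53.0 CPM in control EBs. The log2 fold changes were −5.46 ± 0.34 (FDR 3.2e-05) in Neil1 and −6.15 ± 0.36 (FDR 6.7e-05) in Neil2. Mutant EBs thus had about the Wnt5a level of mESCs, in which the 3 groups ranged from 0.755 to 2.18 CPM. The annotation places an antisense RNA, Gm2670, over 358 exon bases of Wnt5a, and the library kit does not keep strand. At most 49 counts were assigned to Gm2670 in any library. Reads in shared bases can be left unassigned as ambiguous, so that this count does not measure their loss from Wnt5a. Gm11670, with at most 3 counts, likewise lies antisense to 209 exon bases of Axin2.
Wnt5b behaved alike, with 2.60, 2.13 and 2.32 CPM in Neil1 and 1.11, 2.01 and 2.60 CPM in Neil2 EBs against 25.3, 18.6 and 21.0 CPM in control EBs. All mutant clones lay below all control clones, at log2 fold changes of −3.21 ± 0.18 (FDR 1.4e-06) and −3.52 ± 0.31 (FDR 4.0e-04).
Wnt3a was a weakly expressed gene at every stage. It had 0.551, 0.334 and 0.152 CPM in Neil1, 0.488, 0.768 and 0.638 CPM in Neil2 and 1.36, 1.13 and 0.920 CPM in control EBs. Both mutants lay below the controls without overlap, but only the Neil1 value passed the test (−1.77 ± 0.43, FDR 0.011), and the Neil2 value was −0.86 ± 0.34 (FDR 0.14). Wnt8a, expressed in the early streak and posterior epiblast, was the gene of the set that passed in neither mutant. It had 13.5, 9.60 and 14.9 CPM in Neil1, 3.45, 13.0 and 14.5 CPM in Neil2 and 14.4, 12.8 and 15.9 CPM in control EBs, with overlapping groups and 1 low library, that of Neil2 clone #1.

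Rspo3 was lowered in both mutants. It had 1.15, 0.793 and 0.988 CPM in Neil1 and 1.40, 0.427 and 1.37 CPM in Neil2, against 14.2 to 15.7 CPM in control EBs. The log2 fold changes were −3.94 ± 0.21 (FDR 1.3e-06) and −3.79 ± 0.37 (FDR 6.8e-04).

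The inhibitors fell as well. Axin2, the scaffold of the β-catenin destruction complex and a widely used reporter of the pathway, had 21.7, 18.9 and 18.6 CPM in Neil1 and 19.4, 20.5 and 23.5 CPM in Neil2 EBs against 108, 87.7 and 67.6 CPM in control EBs. The mutant clones lay close together and far below the controls (−2.16 ± 0.16, FDR 1.1e-05 and −2.05 ± 0.18, FDR 4.0e-04). Mutant EBs still held more Axin2 than mESCs of any of the 3 genotypes, in which the highest library had 15.0 CPM. Dkk1 had 2.20, 4.09 and 3.04 CPM in Neil1 and 5.21, 1.58 and 2.92 CPM in Neil2 EBs against 44.9, 42.7 and 29.6 CPM in control EBs. These were log2 fold changes of −3.65 ± 0.23 (FDR 5.6e-06) and −3.57 ± 0.38 (FDR 0.0010).

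The 3 transcription factors fell to different extents. Sp5 had 1.05, 1.17 and 1.71 CPM in Neil1 and 1.14, 0.598 and 2.55 CPM in Neil2 EBs against 16.5, 27.4 and 19.8 CPM in control EBs. All mutant clones were below all controls (−4.01 ± 0.26, FDR 4.8e-06 and −3.91 ± 0.45, FDR 0.0014), and the Neil2 value was −4.57 without clone #14, the highest of the 3. Cdx1 had 0.751, 0.751 and 0.684 CPM in Neil1 and 0.847, 1.15 and 1.05 CPM in Neil2 EBs against 6.05, 4.52 and 7.03 CPM in control EBs (−3.01 ± 0.26, FDR 2.1e-05 and −2.53 ± 0.28, FDR 0.0012). Cdx1 thus was lower in mutant EBs than in the mESCs of the same clones, which had 1.53 to 3.0 CPM. Lef1 changed least of the genes lowered in both mutants. It had 34.4, 30.3 and 48.6 CPM in Neil1 and 14.7, 33.4 and 35.6 CPM in Neil2 EBs against 111, 87.3 and 61.0 CPM in control EBs, without overlap (−1.20 ± 0.24, FDR 0.0090 and −1.63 ± 0.33, FDR 0.015).

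Each of these calls in EBs, 9 in Neil1 and 8 in Neil2, was made in all 6 fits that left out 1 clone and by DESeq2. Summed mesoderm markers were 24.5 to 43.0 CPM in Neil1 and 35 to 40.1 CPM in Neil2 EBs against 143.5 to 181.3 CPM in control EBs, and all 6 of these markers (Eomes, Mesp1, Kdr, Foxc1, Twist1 and Meox1) were lowered in both mutants, with Mesp1 at 0 in 1 Neil1 library. Summed pluripotency markers were 2475 to 2823 CPM in Neil1 and 1870 to 2980 CPM in Neil2 against 1617 to 1750 CPM in control EBs, and 5 of 6 in Neil1 and 4 of 6 in Neil2 were raised. Summed endoderm markers overlapped between the groups, at 178.9 to 325.9 CPM in control, 230.7 to 352.5 CPM in Neil1 and 83.9 to 392.2 CPM in Neil2 EBs, and none of the 5 passed. Of the neuroectoderm markers, Pax6 was raised (2.36 and 1.77) and Nes lowered (−1.13 and −1.14) in both mutants, and Tubb3 was raised in Neil1 (1.19). Of 3 tested neural crest markers, Pax3 was lowered in both (−2.44 and −2.28), and in Neil1 Sox10 was lowered (−1.31) and Foxd3 raised (0.94). Foxd3 had 14.4 to 27.5 CPM in control mESCs, 10.4 to 20.2 CPM in control EBs and 0.354 to 1.32 CPM in control EBs + RA. It thus did not mark neural crest alone in these cultures. The part of these markers in the lower Wnt genes was not tested.

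**Figure D2:**
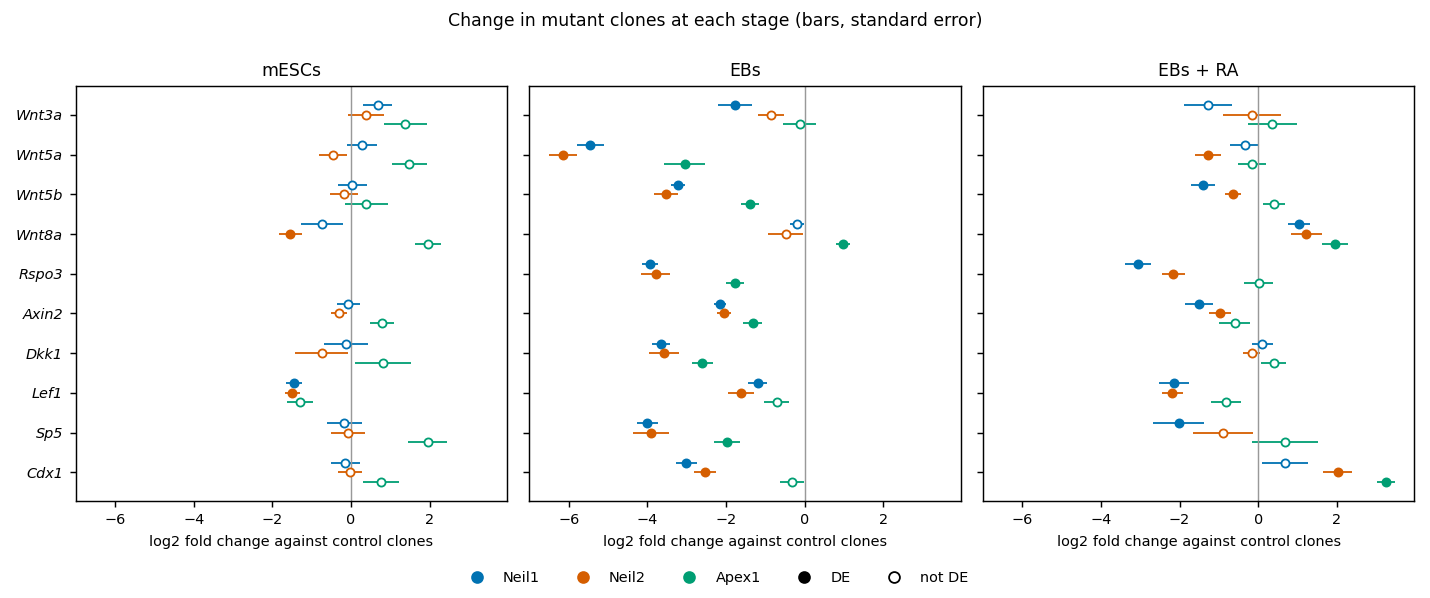
Log2 fold change of each gene against the control clones (x axis) in Neil1, Neil2 and the Apex1-labelled clone at each stage, with the standard error as a bar; filled points were DE and open points were not. In EBs the Neil1 and Neil2 points lie together between −1.20 and −6.15 for all genes but Wnt3a in Neil2 and Wnt8a, and in EBs + RA they spread to both sides of 0.

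Since most of the genes were lowered together in EBs, their promoters were searched for the core of the TCF/LEF site. RefSeq promoter windows of 300 bases, from 250 before to 50 after a start site, were found for 6 of the 10 genes, 11 windows in all, and Wnt5a, Wnt8a, Rspo3 and Cdx1 had none. The letters CTTTGA, on either strand, stood in 4 of the 11 windows, those of 1 start site each of Sp5, Dkk1, Wnt5b and Lef1, and in 16% of all 32851 windows. The longer CTTTGAT, which contains the former, stood in 2 of the 11 windows (Sp5 and Wnt5b) and in 3.73% of all windows. Each match is printed with 10 bases on either side, read 5′ to 3′ so that the core is CTTTGA, in capitals. Numbers in the names give the first base of the match before the start site, and placement on NCBIM37 was by exact match of the window.
Sp5 at −204, chr2:70312766-70312791, plus strand: cactttgtcaCTTTGAgcactgcctt
Sp5 at −104, chr2:70312866-70312891, plus strand: gcaaggccccCTTTGAtcaggaaaat
Dkk1 at −117, chr19:30624088-30624113, minus strand: cctcccaaagCTTTGAaatcccatcc
Dkk1 at −174, chr19:30624145-30624170, plus strand: gcagggaggaCTTTGAcactctcccc
Wnt5b at −71, chr6:119399460-119399485, minus strand: gtaagtctctCTTTGAtctgctccct
Lef1 at −180, chr3:130859022-130859047, minus strand: acctattttcCTTTGAccatgtattt
Lef1 at −120, chr3:130859082-130859107, minus strand: caagacctgaCTTTGAgaacagacaa
The start sites of the Wnt5b, Lef1 and Dkk1 windows lie inside the annotated genes, and other windows of Wnt5b and Lef1 held no match. The 250 bases before the start of Sp5, the most strongly lowered transcription factor of the set, hold both of its matches on the coding strand (chr2:70312730-70312979 of NCBIM37, matches in capitals).
Sp5: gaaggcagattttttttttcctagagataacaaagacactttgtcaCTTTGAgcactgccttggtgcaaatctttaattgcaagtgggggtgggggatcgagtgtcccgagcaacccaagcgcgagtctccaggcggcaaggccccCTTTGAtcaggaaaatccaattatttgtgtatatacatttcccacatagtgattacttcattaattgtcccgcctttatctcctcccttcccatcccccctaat
A match of letters is a description of the window and not a measured binding site.

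In EBs + RA, the 10 genes no longer moved in 1 direction. In Neil1, 5 were lowered and 1 raised, where 19.9% of tested genes were lowered and 21.2% raised. In Neil2, 5 were lowered and 2 raised, where 16.6% were lowered and 18.3% raised. Rspo3, Lef1, Axin2 and Wnt5b were lowered and Wnt8a was raised in both mutants.

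Rspo3 had 0.404, 0.325 and 0.240 CPM in Neil1 and 0.667, 0.476 and 0.661 CPM in Neil2 EBs + RA against 3.12, 2.46 and 2.50 CPM in controls, without overlap (−3.05 ± 0.34, FDR 5.7e-04 and −2.16 ± 0.30, FDR 0.0016). Lef1 had 4.2, 3.72 and 1.64 CPM in Neil1 and 2.74, 3.05 and 3.34 CPM in Neil2 against 18.0, 13.5 and 9.94 CPM in controls (−2.13 ± 0.38, FDR 0.0043 and −2.18 ± 0.26, FDR 9.5e-04). Axin2 had 15.7, 17.7 and 7.85 CPM in Neil1 and 14.8, 22.2 and 21.6 CPM in Neil2 against 47.9, 43.0 and 23.6 CPM in controls. Its groups did not overlap, although the lowest control, clone #7, was close to the highest Neil2 clone (−1.50 ± 0.35, FDR 0.014 and −0.97 ± 0.28, FDR 0.028). Without control clone #1 the Neil2 call for Axin2 was lost (−0.77, FDR 0.114).

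The ligands split. Wnt5b had 4.63, 3.64 and 2.20 CPM in Neil1 and 5.22, 6.53 and 5.71 CPM in Neil2 against 8.75, 10.6 and 7.97 CPM in controls (−1.40 ± 0.30, FDR 0.0093 and −0.65 ± 0.21, FDR 0.043). The Neil2 call was lost without control clone #1 (−0.67, FDR 0.111) or #4 (−0.52, FDR 0.152) or Neil2 clone #14 (−0.62, FDR 0.129). Wnt5a, the ligand with the largest change in EBs, had 7.18, 7.90 and 16.2 CPM in Neil1 and 7.82, 4.00 and 4.42 CPM in Neil2 against 9.43, 12.2 and 17.6 CPM in controls. The Neil1 and control groups overlapped (−0.35 ± 0.36, FDR 0.47), and Neil2 lay below (−1.27 ± 0.33, FDR 0.021). Without Neil1 clone #11, the highest, the Neil1 value was −0.82 (FDR 0.048) and passed.
Wnt8a was the ligand that rose, with 3.89, 3.72 and 2.60 CPM in Neil1 and 1.85, 5.58 and 3.97 CPM in Neil2 against 1.80, 1.43 and 1.61 CPM in controls (1.05 ± 0.28, FDR 0.022 and 1.23 ± 0.39, FDR 0.044). The Neil2 call held in 2 of 6 fits without 1 clone, and was lost without control clone #1 (1.32, FDR 0.108) or #4 (1.15, FDR 0.134) or Neil2 clone #11 (0.84, FDR 0.151) or #14 (1.21, FDR 0.105). Wnt3a had 1.62, 1.26 and 0.320 CPM in Neil1, 0.296, 3.30 and 3.27 CPM in Neil2 and 3.89, 2.65 and 1.12 CPM in control EBs + RA. These ranges overlapped. In each Neil mutant 1 clone was far below the others, and the control clones spread widely. The Neil1 value was −1.27 ± 0.61 (FDR 0.13). With the replicate number as a block it was −1.35 (FDR 0.019) and passed, as it did without control clone #7 (−1.63, FDR 0.058).

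Cdx1 went against its change in EBs. It had 13.8, 17.7 and 2.44 CPM in Neil1 and 12.9, 37.3 and 34.7 CPM in Neil2 EBs + RA against 5.83, 6.51 and 8.53 CPM in controls. All Neil2 clones lay above all controls (2.02 ± 0.37, FDR 0.0053). In Neil1, clones #7 and #9 lay above the controls and clone #11 below them, so that the value was 0.68 ± 0.58 (FDR 0.38), and 1.15 (FDR 0.0067) without clone #11. Sp5 had 1.37, 1.08 and 0.721 CPM in Neil1 and 0.519, 2.98 and 3.34 CPM in Neil2 against 7.47, 4.23 and 1.02 CPM in controls. The control clones spread widely and overlapped with both mutants. The Neil1 value passed (−2.02 ± 0.64, FDR 0.040) but not without control clone #1 (−1.33, FDR 0.155), and the Neil2 value did not (−0.90 ± 0.76, FDR 0.39). Dkk1 had 6.53, 8.69 and 5.16 CPM in Neil1, 6.15, 5.20 and 5.26 CPM in Neil2 and 5.89, 5.30 and 7.47 CPM in controls, with the 3 groups overlapping.

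Markers of other fates differed between these groups as well. Summed neuroectoderm markers were 36.6 to 50.1 CPM in Neil1 and 35.7 to 46.5 CPM in Neil2 EBs + RA against 232.6 to 396.7 CPM in controls, with all 4 of Pax6, Nes, Pax2 and Tubb3 lowered in both. Summed neural crest markers were 2.40 to 4.62 CPM and 5.15 to 6.15 CPM against 28.0 to 65.2 CPM, with Pax3, Tfap2b and Neurog1 lowered in both. Of the other 2, Sox10 passed in neither mutant (−0.77 and 0.11), and Foxd3 was raised in Neil2 (1.37, with 0.75 in Neil1, which did not pass). Summed mesoderm markers were 22 to 24.7 CPM and 31.8 to 42.5 CPM against 113.5 to 130.4 CPM, and of 5 tested, 4 were lowered while Eomes was raised (1.12 in Neil1 and 1.85 in Neil2). Of 5 endoderm markers, Gata4 (1.25), Sox17 (1.58) and Foxa2 (1.61) were raised in Neil1 and none passed in Neil2, with sums of 297.8 to 713.7 CPM in Neil1, 104.4 to 329.8 CPM in Neil2 and 125.6 to 332.0 CPM in controls. Summed pluripotency markers were 252.5 to 330.2 CPM and 171.6 to 490.8 CPM against 74.3 to 114.3 CPM. Their part in the Wnt gene changes was not tested.

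Whether RA acted differently in mutant and control clones was tested by the interaction of genotype and RA, called at an FDR below 0.1. The interaction was positive and called for 7 of 10 genes in Neil1, against 17.3% of tested genes, and for 7 of 10 in Neil2, against 7.42%. It was negative and called for none of the 10 in either, against 14.8% and 7.98% of tested genes. EBs and EBs + RA of 1 clone came from the same culture, and the interaction with the clone as a block is given where it changes a call.

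Wnt5a gave the largest interaction, 5.13 ± 0.54 (FDR 9.0e-05) in Neil1 and 4.86 ± 0.51 (FDR 1.0e-04) in Neil2. On the scale of log2(CPM + 1), Wnt5a fell with RA by 3.45, 2.72 and 1.54 in control clones #1, #4 and #7 and rose in all 6 mutant clones, by 1.05 to 2.33. Dkk1 (3.77 ± 0.36, FDR 2.7e-05 and 3.39 ± 0.46, FDR 4.8e-04) and Wnt5b (1.82 ± 0.35, FDR 0.0030 and 2.86 ± 0.37, FDR 3.6e-04) fell with RA in every control clone. Dkk1 was higher with RA than without in all 6 mutant clones, and Wnt5b in 5 of 6. Cdx1, which did not pass for RA in control clones, was higher with RA in all mutant clones (3.71 ± 0.74, FDR 0.0047 and 4.54 ± 0.50, FDR 1.5e-04).

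For the other genes the interaction was smaller or depended on single libraries. Sp5 had 2.01 ± 0.76 (FDR 0.076) in Neil1 and 2.99 ± 0.96 (FDR 0.068) in Neil2, and each call held in 5 of 12 fits without 1 library. In Neil1 it was lost without the EB library of control clone #4 or #7 or Neil1 clone #7 or #9, or the EBs + RA library of control clone #4 or Neil1 clone #7 or #9 (FDR 0.111 to 0.150). In Neil2 it was lost without the EB library of control clone #4 or #7 or Neil2 clone #1 or #11, or the EBs + RA library of control clone #4 or Neil2 clone #11 or #14 (FDR 0.109 to 0.156). Without the EBs + RA library of control clone #1 the Sp5 values were 2.71 in Neil1 and 3.73 in Neil2, and without the EB library of Neil2 clone #14 the latter was 3.66. All of these kept the direction.
Rspo3 had 0.90 ± 0.36 (FDR 0.088) in Neil1, and 0.89 (FDR 0.103) with the clone as a block. It was called in 3 of 12 fits without 1 library, and lost without the EB library of any control clone or of Neil1 clone #9 or #11, or the EBs + RA library of control clone #4 or #7 or Neil1 clone #7 or #9 (FDR 0.113 to 0.242). In Neil2 it had 1.61 ± 0.48 (FDR 0.051) and was lost without the EB library of control clone #4 or the EBs + RA library of control clone #4 or Neil2 clone #14 (FDR 0.109 to 0.111).
Axin2 had 1.06 ± 0.34 (FDR 0.068) in Neil2, called in 5 of 12 fits. It was lost without the EB library of control clone #1 or #4 or any Neil2 clone, or the EBs + RA library of Neil2 clone #11 or #14 (FDR 0.101 to 0.168). In Neil1 it had 0.67 ± 0.42 (FDR 0.26), with 0.65 (FDR 0.095) under the block and 0.94 (FDR 0.079) without the EBs + RA library of clone #11. Wnt8a had 1.26 ± 0.31 (FDR 0.013) in Neil1 and 1.69 ± 0.64 (FDR 0.12) in Neil2, where the block gave 1.77 (FDR 0.0035). The Neil2 value also passed without the EB library (1.27, FDR 0.083) or the EBs + RA library (2.06, FDR 0.046) of clone #1. Lef1, lower with RA in every clone, had −0.91 ± 0.45 (FDR 0.16) in Neil1 and −0.57 ± 0.44 (FDR 0.47) in Neil2. The Neil1 value passed without the EBs + RA library of control clone #7 (−1.11, FDR 0.080) or of Neil1 clone #7 (−1.16, FDR 0.0995).

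**Figure D3:**
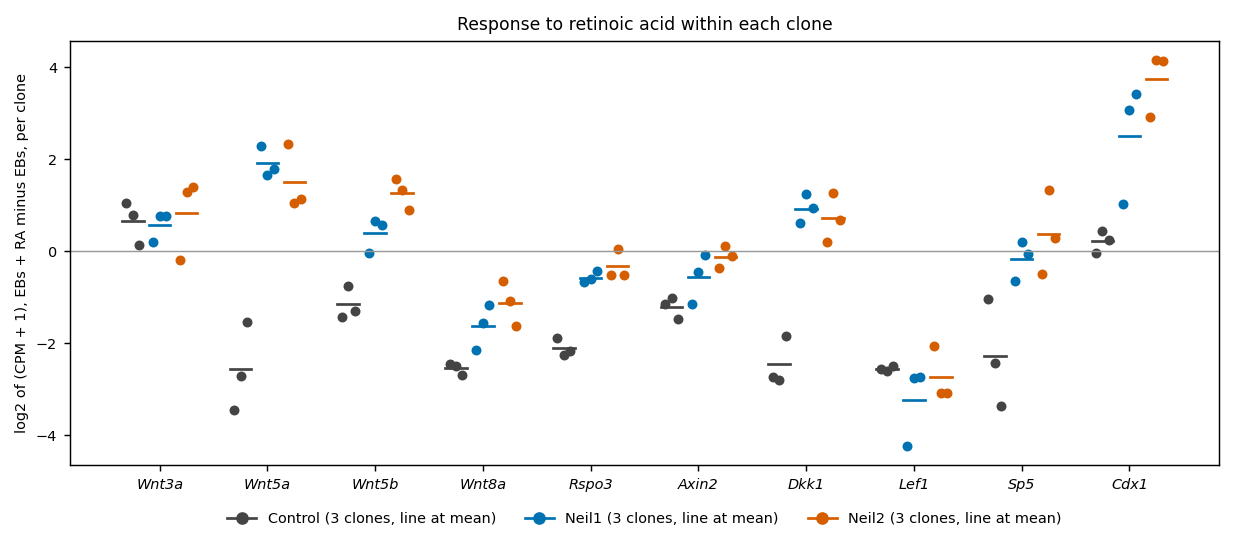
Difference between EBs + RA and EBs of the same clone on the scale of log2(CPM + 1), for the 3 clones each of control, Neil1 and Neil2, with the mean as a line. For Wnt5a and Dkk1 the control clones lie below 0 and all 6 mutant clones above it. For Lef1 all clones lie below −2, with Neil1 clone #11 apart from the others at −4.23.

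In undifferentiated mESCs, few of the genes differed. Lef1 was the gene that passed in both mutants. It had 31.8, 26.1 and 23.9 CPM in Neil1 and 22.2, 29.2 and 28.8 CPM in Neil2 mESCs against 78.3, 90.2 and 52.6 CPM in control mESCs, without overlap. The log2 fold changes were −1.45 ± 0.21 (FDR 0.057) and −1.49 ± 0.20 (FDR 0.041). In Neil1 it was 1 of 9 tested genes of the set, where 0.784% of all tested genes were lowered, and in Neil2 it was joined by Wnt8a, 2 of 9 against 0.429%. Wnt8a had 0.965, 0.631 and 0.775 CPM in Neil2 against 2.15, 2.17 and 2.45 CPM in control mESCs (−1.54 ± 0.29, FDR 0.063), and 1.27, 2.46 and 0.400 CPM in Neil1, which overlapped with the controls. Rspo3, at 2 to 5 counts per mESC library, was removed by the filter on low counts.
These calls depended on single libraries. Lef1 passed in 2 of 6 fits without 1 clone in Neil1, in which its value ranged from −1.65 to −1.29. It was lost without control clone #1 (FDR 0.188) or #4 (FDR 0.257) or Neil1 clone #7 (FDR 0.173) or #9 (FDR 0.132). In Neil2 Lef1 passed in 3 of 6, from −1.69 to −1.32, and was lost without control clone #4 (FDR 0.169) or Neil2 clone #11 (FDR 0.146) or #14 (FDR 0.306). Wnt8a in Neil2 passed in 2 of 6, from −1.71 to −1.41, and was lost without control clone #1 (FDR 0.156) or #4 (FDR 0.219) or Neil2 clone #11 (FDR 0.229) or #14 (FDR 0.361). The mESC library of Neil1 clone #11, which held no counts on the distal part of chromosome X, is among those left out, and no gene of the set is X-linked. By DESeq2 the Lef1 values had an FDR of 2.2e-07 and 1.7e-08.
The other 8 tested genes in Neil1 had log2 fold changes from −0.74 to 0.68, and the other 7 in Neil2 from −0.75 to 0.38.

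The libraries labelled Apex1 were compared as 1 sample, the sum of the duplicates, with the 3 control clones, on the assumption that this sample varied like the controls. In EBs, 6 of the 10 genes were lowered and 1 raised, where 9.10% of tested genes were lowered and 7.49% raised. Wnt5a had 7.54 and 12.3 CPM in the duplicates, below the 53.0 to 113 CPM of control EBs (−3.05 ± 0.52, FDR 0.033), and was not called without control clone #4 (−3.03, FDR 0.130). Dkk1 had 5.64 and 7.00 CPM (−2.60 ± 0.27, FDR 0.0011), Sp5 4.6 and 5.98 CPM (−1.98 ± 0.32, FDR 0.0073), and Rspo3 3.06 and 5.48 CPM (−1.77 ± 0.23, FDR 0.0024). All of these lay below every control EB library and above every Neil1 and Neil2 EB library. Wnt5b (8.10 and 8.13 CPM, −1.40 ± 0.23, FDR 0.0055) and Axin2 (34.6 and 34.8 CPM, −1.32 ± 0.24, FDR 0.017) lay between these groups in the same way. The Apex1-labelled clone and the Neil clones were not tested against each other. Marker genes moved in these EBs too. Summed endoderm markers were 42.4 to 48.8 CPM against 178.9 to 325.9 CPM in control EBs, with 4 of 5 lowered. Summed mesoderm markers were 72.7 to 81.8 CPM against 143.5 to 181.3 CPM, with 3 of 6 lowered, and summed pluripotency markers 2877 to 2935 CPM against 1617 to 1750 CPM, with 4 of 6 raised. Their part in the Wnt gene changes was not tested.
Wnt8a was raised in the libraries labelled Apex1, with 27.3 and 28.6 CPM against 12.8 to 15.9 CPM in control EBs (0.98 ± 0.19, FDR 0.011). Lef1 (51.4 and 52.3 CPM, −0.71 ± 0.32, FDR 0.22) and Cdx1 (4.92 and 4.39 CPM, −0.32 ± 0.31, FDR 0.54) did not pass, and Wnt3a overlapped with the controls. Without control clone #7 the Lef1 value was −0.90 (FDR 0.0012).

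In EBs + RA, Cdx1 (75.9 and 56.9 CPM against 5.83 to 8.53 CPM in controls, 3.25 ± 0.23, FDR 0.012) and Wnt8a (6.30 and 6.23 CPM against 1.43 to 1.80 CPM, 1.97 ± 0.33, FDR 0.036) were raised in the libraries labelled Apex1, 2 of 10 where 5.32% of tested genes were raised. None of the 10 was lowered, where 3.02% were. The Cdx1 level was the highest of the 12 groups. Markers differed here too. Summed pluripotency markers were 489 to 619.1 CPM against 74.3 to 114.3 CPM in controls, with 5 of 6 raised. Summed neuroectoderm markers were 63.6 to 69.8 CPM against 232.6 to 396.7 CPM, with all 4 lowered, and 3 of 5 neural crest markers were lowered. Of 5 mesoderm markers 1 was raised and 1 lowered, and no endoderm marker passed. Their part in the Wnt gene changes was not tested. Wnt8a was not called without control clone #4 (1.89, FDR 0.112). Without control clone #7, Axin2 (−0.86, FDR 1.3e-04) and Lef1 (−1.01, FDR 0.0011) passed as well.
In mESCs, 8 of the 9 tested genes had a positive log2 fold change, from 0.38 for Wnt5b to 1.96 for Wnt8a (8.79 and 8.77 CPM against 2.15 to 2.45 CPM in controls), and Lef1 had −1.31 (30.7 and 28.7 CPM). None passed, and edgeR called 0 of 16695 genes, or 0% of all, in this comparison, with 2175 at an unadjusted p below 0.05, while DESeq2 called 442. By DESeq2, Wnt8a (FDR 0.0026) and Lef1 (FDR 0.011) passed. Without control clone #7, edgeR called 5621 of 16621 genes, and 7 of the 9 genes of the set passed: Wnt8a (2.02), Sp5 (1.70), Wnt5a (1.62), Dkk1 (1.52), Wnt3a (1.17) and Axin2 (0.97) as raised, and Lef1 (−1.50) as lowered. Without control clone #1, Lef1 passed alone (−1.25, FDR 0.095).

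Set against each other, Neil1 and Neil2 clones gave no call for any of the 10 genes at any stage. With 3 clones per group and the standard errors below, a lack of calls does not show that the mutants are alike. edgeR called 0 genes in all, or 0% of those tested, in mESCs, EBs and EBs + RA, with 915, 735 and 1608 genes at an unadjusted p below 0.05, and DESeq2 called 3, 1 and 108 genes. The difference of Neil1 from Neil2 was largest in EBs for Wnt3a (−0.89 ± 0.50) and Wnt5a (0.67 ± 0.37). In EBs + RA it was largest for Cdx1 (−1.31 ± 0.65) and Sp5 (−1.08 ± 0.61), and in mESCs for Wnt8a (0.80 ± 0.55).

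Genes acting at other steps of the pathway were taken from lists written by role, with earlier results of these data known. In EBs, 9 of 15 other Wnt ligands passed the filter on low counts, and 8 were lowered and 1 raised in Neil1, and 7 lowered and 1 raised in Neil2. Their median log2 fold change was −1.89 and −1.37. Wnt3, the ligand required for the primitive streak, had 30.7 to 41.4 CPM in control EBs, 1.92 to 3.55 CPM in Neil1 and 2.12 to 3.10 CPM in Neil2, without overlap (−3.53 ± 0.23, FDR 6.1e-06 and −3.68 ± 0.21, FDR 6.7e-05). Wnt2b (−1.89 in both) and Wnt6 (−2.24 and −1.51) were lowered in both mutants as well. The 1 raised ligand, named here after its value was seen, was Wnt7b, at 15.2 to 22.4 CPM in control, 18.4 to 56.8 CPM in Neil1 and 41.1 to 70.4 CPM in Neil2 EBs, with 1 Neil1 clone within the control range.

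Posterior and primitive streak genes, most of them known to respond to Wnt or to Brachyury, changed most of all lists. Of 12 genes, 11 were tested in EBs, and 10 were lowered in Neil1 (median −4.24) and 9 in Neil2 (median −5.0). Nkx1-2 (−5.65 and −6.13), the posterior homeobox gene Cdx2 (−5.50 and −5.40) and Evx1 (−5.26 and −5.54) had the largest changes among those lowered in both. Nkx1-2 had 6.58 to 22.6 CPM in control EBs, but at most 0.401 CPM in Neil1 and 0.274 CPM in Neil2. The size of its fold changes thus rests on very few counts in the mutants. Cdx2 had 48.8 to 84.9 CPM in control EBs, 1.29 to 1.70 CPM in Neil1 and 1.24 to 2.09 CPM in Neil2. Dll1, a Notch ligand likewise named after its value was seen, was the gene raised, at 3.86 to 4.91 CPM in control, 7.10 to 12.4 CPM in Neil1 and 8.24 to 14.6 CPM in Neil2 EBs.

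In secretion, receptor and intracellular genes the shares called were nearer to those of all tested genes, of which 13.1% were lowered and 10.4% raised in Neil1 EBs and 7.69% and 8.65% in Neil2 EBs. Of 18 intracellular pathway genes, all tested in EBs, 4 were lowered and 2 raised in Neil1 and 2 lowered and 2 raised in Neil2, with medians of −0.13 and −0.06. Those lowered in both included Wls, the carrier that Wnt ligands need for secretion (−3.04, FDR 2.0e-05 and −3.25, FDR 8.3e-04), and Nkd1, a feedback inhibitor acting on Dishevelled (−3.44, FDR 8.9e-06 and −2.58, FDR 0.0016), and the repressor Tcf7l1 was raised (0.77 and 0.82). Of 17 tested receptors and co-receptors, 4 were lowered in Neil1 and 3 in Neil2 and none was raised. Fzd10 was left out of this list because its name matched 2 gene identifiers. Lgr5, a receptor for R-spondins and itself a Wnt target (−4.51 and −4.62), Fzd1 (−1.94 and −1.69) and Fzd2 (−1.40 and −0.86) were lowered in both. Lgr5 had 2.54 to 9.45 CPM in control EBs, but at most 0.417 CPM in Neil1 and 0.365 CPM in Neil2, which are very few counts. Of 14 tested secreted modulators, 4 were lowered and 3 raised in Neil1 and 2 lowered and 2 raised in Neil2. They included the lowered Dkk2 (−4.80 and −4.52) and Frzb (−1.65 and −1.28) and the raised Sfrp2 (0.71 and 0.90). Dkk2 had 0.81 to 1.72 CPM in control EBs, but at most 0.083 CPM in Neil1 and 0.065 CPM in Neil2. Its fold changes in EBs rest on very few counts.

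With RA, each list held both lowered and raised genes. In EBs + RA, 19.9% of all tested genes were lowered and 21.2% raised in Neil1, and 16.6% and 18.3% in Neil2. In Neil1, the shares lowered among other ligands and intracellular genes were near that of all genes. Of 12 tested other ligands, 3 were lowered and 2 raised in Neil1 and 4 lowered and 2 raised in Neil2, with medians of −0.07 and 0.13. Wnt1, a ligand of the midbrain and dorsal neural tube that was listed at 0 in control EBs, had 4.51 to 17.2 CPM in control EBs + RA, 0 to 0.280 CPM in Neil1 and 0.111 to 0.174 CPM in Neil2 (−6.05 ± 0.78, FDR 0.0012 and −6.15 ± 0.61, FDR 4.8e-04). The size of the Wnt1 fold changes rests on very few counts in the mutants. Wnt2b was lowered (−2.89 and −3.19) and Wnt7b again raised (1.86 and 1.76). Of 17 tested receptors, 8 were lowered in Neil1 and 7 in Neil2 and 1 raised in each, with Lgr5 (−4.67 and −4.11), the Wnt5a receptor Ror1 (−2.33 and −1.90) and Fzd1 (−1.88 and −1.83) lowered in both. Sfrp1 (−3.76 and −3.38), Sfrp2 (−3.44 and −2.93) and Dkk2 (−2.44 and −1.99) were lowered among secreted modulators, of which 6 of 12 fell and 4 rose in Neil1 and 4 of 13 fell and 1 rose in Neil2. Among intracellular genes 4 fell in Neil1 and 7 in Neil2 and 2 rose in each. Nkd1 (−2.84 and −2.27) and Wls (−1.19 and −0.91) were lowered and Porcn, the enzyme that adds a lipid to Wnt ligands, was raised (1.19 and 1.49). Of the posterior genes, 3 of 7 tested were lowered and 2 raised in Neil1 and 3 of 8 lowered and 3 raised in Neil2. Nkx1-2 (−5.72 and −5.23), Sp8 (−3.51 and −3.62) and Dll1, raised in EBs, (−2.82 and −2.74) were lowered in both. Nkx1-2 had 0.63 to 2.22 CPM in control EBs + RA, but at most 0.072 CPM in Neil1 and 0.063 CPM in Neil2. Its fold changes there rest on very few counts.

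**Figure D4:**
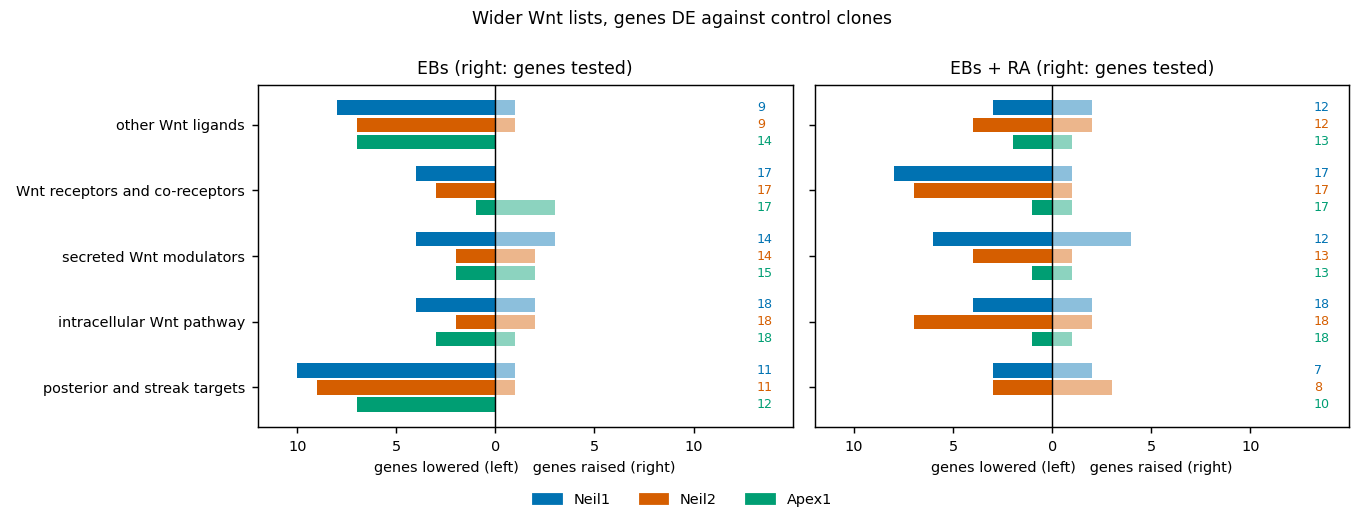
Number of genes DE against the control clones in 5 lists of Wnt pathway genes in EBs and EBs + RA, lowered to the left and raised to the right, with the number of genes tested at the right edge. In EBs the bars of other Wnt ligands (8 and 7 lowered) and of posterior and streak targets (10 and 9 lowered) reach farthest for Neil1 and Neil2.

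In the libraries labelled Apex1, 7 of 14 tested other ligands and 7 of 12 posterior genes were lowered in EBs, where 9.10% of all tested genes were, and none was raised. In EBs + RA 2 of 13 and 0 of 10 were lowered, where 3.02% were, and 1 of the 13 ligands was raised.

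Over the 12 group means of log2(CPM + 1), the genes most like each member were sought among 15722 genes, as a description over groups that share clones. Axin2 and Rspo3 were each other's closest match, at Pearson r = 0.951. Wnt5b (r = 0.981) and Wnt5a (0.953) had Tgfb2 among their closest, and Wnt5a also Cd44 (0.954). Sp5 was most like Fzd10 (0.965), Dkk1 like Prdm6 (0.962) and Lef1 like Rcc1 (0.966). Cdx1 (Tnfsf9, 0.958), Wnt3a (Ankrd42, 0.948) and Wnt8a (Fastkd3, 0.932) had other genes as their closest.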

How the data were processed

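RNA was sequenced from 33 libraries made with the TruSeq RNA v2 kit, which does not keep strand. The authors aligned the reads to the mouse genome (NCBIM37) with TopHat2 2.0.9 and Bowtie2 2.1.0 and deposited raw counts per Ensembl gene from HTSeq 0.5.4, per the labels' processing notes. Whether HTSeq was set to use strand is not given in the sources used here. Lines of the count tables that name no gene, 21.8 to 30.4% of all entries in a library, were left out of library sizes and tests.

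Counts were tested with edgeR 4.0.16 in R 4.3.3 (filterByExpr, TMM scaling, quasi-likelihood F-test, Benjamini-Hochberg adjustment over all tested genes). A gene was DE at an FDR below 0.1 with an absolute log2 fold change above 0.5, and an interaction was called at an FDR below 0.1. Each fit held the groups compared, and the Apex1 duplicates were summed to 1 sample. P-values cover the spread between clones. All 30 replicate pairs differed beyond sampling noise.

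The members and the gene lists were chosen with earlier results of these data known. All 10 members were described in each comparison. From each other list, up to 3 genes DE in both Neil mutants were named by the size of their mean log2 fold change, and the genes most like a member by Pearson's r over group means. Marker lists covered pluripotency, mesoderm, endoderm, neuroectoderm and neural crest. Alternatives were RLE size factors, no filter, at least 10 counts in every library, DESeq2 1.42.0, an FDR below 0.05, all genotypes or stages in 1 fit, a replicate block and each library left out.

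EBs and EBs + RA of 1 clone came from the same culture, and the deviations of same-clone libraries from their group means correlated at 0.21 to 0.44. Same-numbered Neil1 and control EBs + RA libraries correlated at 0.17 to 0.23, and other numbers did not pair mutant and control clones. Promoter windows came from RefSeq (GRCm38.p6) and were placed on NCBIM37 by exact match. The scripts were tested on simulated data.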

Additional observations from a re-analysis of the deposited data

Results flagged for a closer look

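The response to RA differed between mutant and control clones for 7 of the 10 genes in each Neil mutant, by the interaction term of edgeR's quasi-likelihood test, where 17.3% of all tested genes in Neil1 and 7.42% in Neil2 had a positive interaction that was called. All 14 values were positive on the log2 scale, so that the mutant clones lost less or gained more of the transcript with RA than the control clones. In Neil1 the interaction was 5.13 for Wnt5a, 3.77 for Dkk1, 3.71 for Cdx1, 2.01 for Sp5, 1.82 for Wnt5b, 1.26 for Wnt8a and 0.90 for Rspo3. In Neil2 it was 4.86 for Wnt5a, 4.54 for Cdx1, 3.39 for Dkk1, 2.99 for Sp5, 2.86 for Wnt5b, 1.61 for Rspo3 and 1.06 for Axin2. Both sets of values rest on the same 6 control libraries and are not independent. For Wnt5a, Dkk1 and Wnt5b, the control level before RA was much higher than the mutant level, and the levels with RA were closer together. The control level before RA was also much higher for Sp5, Rspo3, Axin2 and Cdx1. Mean CPM in control, Neil1 and Neil2 EBs was 21.2, 1.31 and 1.43 for Sp5 and 14.9, 0.977 and 1.07 for Rspo3. It was 87.7, 19.7 and 21.1 for Axin2 and 5.87, 0.729 and 1.02 for Cdx1. With RA, Sp5, Rspo3 and Axin2 stayed lower on average in both mutants and Cdx1 was higher. How far the lower level before RA makes up the interactions was not tested.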

How the results depend on the processing

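Leaving out 1 library at a time gave 9 DE genes of the set in Neil1 EBs and 8 in Neil2 EBs in every fit, and 5 to 8 in Neil1 and 4 to 7 in Neil2 EBs + RA. The number was 0 to 1 in Neil1 mESCs, 0 to 2 in Neil2 mESCs, 8 to 9 in control EBs against mESCs and 8 to 9 in control EBs + RA against EBs. For the Apex1-labelled clone it was 0 to 7 as mESCs, 6 to 8 as EBs and 1 to 4 with RA. It was 5 to 8 for the RA interaction in Neil1 and 4 to 8 in Neil2, and 0 in each fit of Neil1 against Neil2.

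At an FDR below 0.05, 0 genes of the set were DE in Neil1 mESCs, 1 in Neil2 mESCs and 4 for the interaction in Neil2. With all genotypes in 1 fit, 1 was DE in Neil2 mESCs and 1 in Apex1-labelled mESCs, where no filter and DESeq2 each gave 2. With the replicate block, 0 were DE in Neil1 mESCs (Lef1 FDR 0.134), where the numbers do not pair the clones. Apart from this Lef1 call and the block values for Wnt3a, Wnt8a, Axin2 and Rspo3 given above, it changed no call of the 10 genes.

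Over all genes, the number called moved from 283 in Neil1 mESCs to 5 (FDR below 0.05), 503 (no filter), 999 (DESeq2), 0 (replicate block) and 905 (all genotypes in 1 fit). In Neil2 mESCs it moved from 286 to 22, 479, 811, 634 and 72 in that order. In Apex1-labelled mESCs it moved from 0 to 163 (no filter), 442 (DESeq2) and 336 (all genotypes), in EBs from 2796 to 1499 (all genotypes) and in EBs + RA from 1400 to 568 (FDR below 0.05) and 2332 (no filter). The interaction in Neil2 moved from 2581 to 1687 (FDR below 0.05) and 4163 (replicate block). Neil1 against Neil2 moved from 0 to 4 (no filter) and 3 (DESeq2) in mESCs, to 1 and 1 in EBs, and with RA to 108 (DESeq2). The cause of these moves was not tested.

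Leaving out 1 library, the number over all genes was 0 to 2011, 3184 to 3601 and 4594 to 7199 in Neil1 mESCs, EBs and EBs + RA, 1 to 1494, 1407 to 3705 and 4024 to 6582 in Neil2, and 0 to 5621, 1893 to 3888 and 449 to 5435 for the Apex1-labelled clone. It was 5351 to 7184 and 6683 to 7502 in the control comparisons and 3640 to 6750 and 1618 to 3500 for the interaction in Neil1 and Neil2.

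Of 156 tested values of the 10 genes, 27 passed in no setting and changed sign in some, and no fold change is given for these. Counts of 2 to 5 for Rspo3 in mESCs allow no comparison there.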
